A study of Mus musculus with 3 samples.

Results

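The regions described here are stretches of accessible chromatin that were called in both fractions of CBir1 T cells and not in the polyclonal CD4+ T cells sorted from the same mice. Peaks of the 3 deposited lists on chromosomes 1 to 19 that shared at least 1 bp were merged, and members were selected on the presence of called peaks: a merged region was kept when it held a divided and an undivided CBir1 peak and no polyclonal peak. This left 2207 of 55946 merged regions, a share of 3.94% (Wilson 95% interval 3.79 to 4.11, covering counting error only). The presence or absence of a peak chose these regions, so their absence from the polyclonal list is not a result.

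Chromatin was profiled by ATAC-seq, in which a transposase cuts open DNA and tags it for sequencing. Naive CD4+ T cells of CBir1 transgenic mice were labelled with CellTrace Violet, a dye that dims as cells divide, and given to 4 WT C57BL/6J mice. The first group was divided CBir1 T cells (dye dim), the second undivided CBir1 T cells (dye high), and the last the polyclonal fraction, all endogenous CD4+ T cells without the CBir1 receptor, all sorted from colon-draining mesenteric lymph nodes on day 14. Every group, the polyclonal one included, came from recipients that drank 2% dextran sulfate sodium for 7 days and were given FTY720, a drug that keeps lymphocytes from leaving lymph nodes, on days 7, 10 and 13 at 1 mg/kg. Cells of 2 mice were pooled for each sort and sorts were made in duplicate. Only 1 list for each fraction was analysed, with the treatment of duplicates not given in the sources used here, so differences below are without replicates and without p-values. CBir1 cells carry a transgenic receptor and came from donors, while polyclonal cells are the recipients' own mixture of naive, memory and regulatory cells, so receptor, origin and cell makeup cannot be told apart. In such bulk lists, fewer cells with an open site and a less open site in each cell cannot be told apart either.

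CBir1 is a flagellin of gut bacteria, and the CBir1 transgenic receptor lets CD4+ T cells recognise it when barrier damage exposes them to bacterial antigen. An accessible region marks DNA freed from nucleosomes, usually at a promoter, where transcription starts, or at an enhancer, a distal element bound by transcription factors.

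Promoters are the regions for which sequence was at hand, and 93 of the regions covered at least part of 110 promoter windows (from 250 bases before to 50 after a RefSeq start, GRCm38.p6), of 31365 such windows on the autosomes. The following are the 250 bases before the start at the 5 protein-coding genes whose covering region was strongest, printed 5′ to 3′ on the gene's strand; capitals mark a match to a searched motif, and only Rprm had one, a GC box read on the opposite strand.
Rprm, chr2:54085553-54085802, minus strand: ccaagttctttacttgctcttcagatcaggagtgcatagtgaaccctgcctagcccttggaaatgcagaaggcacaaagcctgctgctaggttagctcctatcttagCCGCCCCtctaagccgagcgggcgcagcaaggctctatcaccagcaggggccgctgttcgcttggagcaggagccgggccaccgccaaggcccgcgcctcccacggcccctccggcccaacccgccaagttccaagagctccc
Hbq1b, chr11:32286714-32286963, plus strand: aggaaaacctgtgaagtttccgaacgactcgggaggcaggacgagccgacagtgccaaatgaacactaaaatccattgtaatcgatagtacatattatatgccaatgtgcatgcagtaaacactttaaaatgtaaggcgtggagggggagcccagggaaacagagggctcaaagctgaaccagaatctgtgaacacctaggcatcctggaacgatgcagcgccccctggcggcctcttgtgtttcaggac
Ptpn3, chr4:57301838-57302087, minus strand: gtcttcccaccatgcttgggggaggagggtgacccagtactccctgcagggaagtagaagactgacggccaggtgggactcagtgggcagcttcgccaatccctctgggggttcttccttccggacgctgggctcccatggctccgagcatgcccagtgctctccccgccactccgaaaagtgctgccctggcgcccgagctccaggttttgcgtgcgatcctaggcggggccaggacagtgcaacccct
Ly6c1, chr15:75048664-75048913, minus strand: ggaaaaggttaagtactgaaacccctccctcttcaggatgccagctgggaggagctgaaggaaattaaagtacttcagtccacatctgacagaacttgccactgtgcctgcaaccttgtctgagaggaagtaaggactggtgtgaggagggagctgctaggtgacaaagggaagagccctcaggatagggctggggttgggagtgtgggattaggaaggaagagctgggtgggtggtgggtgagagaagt
Gramd2, chr9:59679583-59679832, plus strand: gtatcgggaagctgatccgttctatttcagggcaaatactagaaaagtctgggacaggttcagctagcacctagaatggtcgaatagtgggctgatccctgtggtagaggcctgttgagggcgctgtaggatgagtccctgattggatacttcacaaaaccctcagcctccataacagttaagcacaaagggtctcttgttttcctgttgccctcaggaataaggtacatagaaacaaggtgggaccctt

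Strength was ranked by the lower of the divided and undivided −log10 q-values, and summit pileup is the number of fragments stacked at the highest point of a peak. At Rprm, which encodes a p53-induced inhibitor of cell cycle progression, the pileup was 56 fragments in divided and 60 in undivided cells, and all 300 bases of its window lay inside the region. At Hbq1b, a theta globin gene, it was 24 in divided and 21 in undivided cells. At Ptpn3, a tyrosine phosphatase gene, it was 34 in divided and 28 in undivided cells. At Ly6c1, which encodes a surface protein of lymphoid and myeloid cells, it was 24 in divided and 31 in undivided cells, and at Gramd2 34 in divided and 21 in undivided cells. Of the 250 printed bases, 107 lay inside the region at Hbq1b, 243 at Ptpn3 and 179 at Ly6c1, and all 250 at Rprm and Gramd2. The printed Rprm sequence was 62.4% G and C with 13 CpG dinucleotides, whereas that of Ly6c1 was 53.2% G and C with 0 CpG. A region with a polyclonal peak lay 892404 bp from the Rprm region, 18907 bp from Hbq1b, 432 bp from Ptpn3, 3089 bp from Ly6c1 and 638 bp from Gramd2.

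The 110 covered windows had a median G and C content of 57.3%, and a median of 9 CpG, against 62% and 22 CpG in the 11961 windows covered by regions of all 3 fractions, and 53% and 7 CpG over all windows. The GC box GGGGCGG (either strand) was in 30% of the windows under these regions, against 45.3% under regions of all 3 fractions and 23.4% of all windows. The AP-1 motif TGANTCA was in 6.36% of the windows under these regions, against 4.44% under regions of all 3 fractions and 7.85% of all windows. The RUNX motif AACCACA was in 4.55% of theirs, against 3.66% under regions of all 3 fractions and 5.32% of all windows. The ETS motif ACAGGAAG was in 3.64%, against 3.63% under regions of all 3 fractions and 3.62% of all windows. The TCF/LEF motifs CTTTGAA or CTTTGAT were in 7.27%, against 5.61% under regions of all 3 fractions and 8.64% of all windows. The promoter windows that these regions touched thus lay between the common open promoters and the average promoter in base composition. Any overlap counted, down to 8 bases at Ccl27b. The summit lay in a promoter window in 2.58% of these regions, against 18.9% of those of all 3 fractions. With 110 windows each motif share rests on few matches, and a match describes letters only.

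The hairpin of Mir30a also lay inside a region (chr1:23271812-23272390), whose pileup was 12 fragments in divided and 11 in undivided cells. Its mature forms are shown because they are the only miRNA sequences that such a region contained, with the seed (bases 2 to 8) in capitals.
mmu-miR-30a-5p: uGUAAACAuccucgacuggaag
mmu-miR-30a-3p: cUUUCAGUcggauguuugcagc

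As open sites, most of the 2207 regions were small and weak. They were 156 to 1446 bp wide with a median of 395 bp, together 927 kb, and 2185 of them held exactly 1 divided and 1 undivided peak. The median pileup was 15 fragments in divided and 11 in undivided cells. Regions of all 3 fractions had medians of 50 in divided cells, 41 in undivided cells and 41 in polyclonal cells. Both −log10 q-values reached 5 in 1091 regions (49.4%), 10 in 266 (12.1%) and 20 in 21. In 1838 regions (83.3%) the undivided pileup was at or above 8 fragments, the 10th percentile of the polyclonal list, but only in 220 (9.97%) was it at or above that list's median of 27. Peak lists give no polyclonal signal below the caller's threshold, so a missing polyclonal peak does not show closed chromatin.

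Depth differed between the libraries. The lowest local background in each list, which follows depth if settings were the same, was 1.21 fragments in divided cells, 0.808 in undivided cells and 0.865 in polyclonal cells. By this measure the polyclonal library was slightly deeper than the undivided one (undivided over polyclonal 0.933) and shallower than the divided one (divided over polyclonal 1.40). In regions of all 3 fractions the median pileup ratios were 1.19 for divided over polyclonal and 0.987 for undivided over polyclonal. When every list was limited to pileups above a common minimum scaled by that background, 1581 of 44939 regions fell in this class. That limit also drops polyclonal peaks, so these need not all be among the 2207.

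For regions called in exactly 2 fractions, those of both CBir1 fractions were about as many as the 2225 of undivided and polyclonal cells (3.98%) and fewer than the 3974 of divided and polyclonal cells (7.10%). Regions of all 3 fractions numbered 31886 (57.0%).

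**Figure D1:**
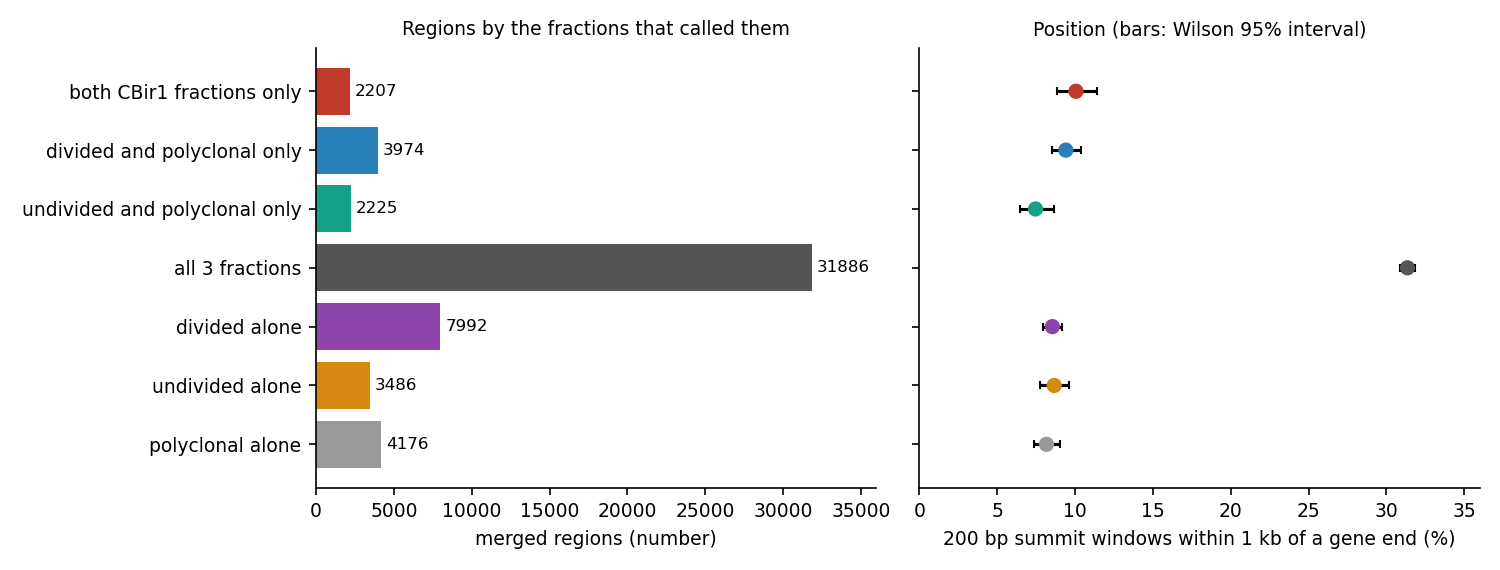
Left, number of merged autosomal regions (x axis) for each combination of fractions that called them. Right, share (%) of 200 bp windows around the summit that came within 1 kb of the start or end of a gene span, with Wilson 95% intervals. The 2207 regions of both CBir1 fractions lie at 10.1%, far below the 31.4% of regions of all 3 fractions and near the other classes.

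Few of the regions lay at gene ends. Of the 2207, 242 (10.97%, 9.73 to 12.3) came within 1 kb of the start or end of a gene span (a gene end), and that share was 10.4% for regions of divided and polyclonal cells, 8% for undivided and polyclonal cells and 33.1% for all 3 fractions. Fixed windows of 200 bp around the summit, which remove the effect of width, gave 10.1%, against 9.41% for divided and polyclonal cells, 7.46% for undivided and polyclonal cells and 31.4% for all 3 fractions. Inside genes lay 1261 regions (57.1%, 55.1 to 59.2), against 69.3% of the regions of all 3 fractions. Another 819 lay outside genes with a gene within 100 kb, at a median distance of 10853 bp, and 127 (5.75%) had no gene within 100 kb. Regions of all 3 fractions were also stronger, so equally strong ones were set side by side. With a lower CBir1 −log10 q of 3.47 to 7.04, the gene end share was 9.97% (8.34 to 11.9, 1103 regions), against 13.1% (12.03 to 14.2, 3859 regions) for all 3 fractions. At equal strength the classes thus lay closer together, and their median widths were 407 bp in the regions of both CBir1 fractions and 551 bp in those of all 3 fractions.

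Divided and undivided summits of a region lay within 50 bp of each other in 1164 regions (52.7%, 50.7 to 54.8), at a median distance of 46 bp. Regions of all 3 fractions gave 64.4% and 27 bp. At equal strength, as above, the share was 51.0% (48.0 to 53.9) in the regions of both CBir1 fractions and 48.5% (46.9 to 50.1) in those of all 3 fractions, with intervals that overlap. A polyclonal peak was often in the neighbourhood, at a median of 5514 bp and within 1 kb for 15.8% of the regions.

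Pileups in divided cells were above those in undivided cells in 1581 regions, equal in 153 and below in 473. The median divided over undivided pileup ratio was 1.29, against 1.21 in regions of all 3 fractions. Scaled so that regions of all 3 fractions have a median of 1, it was 1.07 in the regions of both CBir1 fractions, with an interquartile range of 0.829 to 1.36. Scaled by lowest background instead, the ratio was 0.859 in these regions, against 0.806 in those of all 3 fractions, so whether divided cells lay above undivided cells at all depended on the scaling. Divided pileup was at least 2 times undivided pileup, scaled by shared regions, in 128 regions (5.80%, 4.90 to 6.85), against 4.18% of regions of all 3 fractions. The opposite held for 46 regions (2.08%, 1.57 to 2.77), against 3.57%. Regions of all 3 fractions were stronger, and these shares were not compared at equal strength, so the part of signal level in them was not tested.

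**Figure D2:**
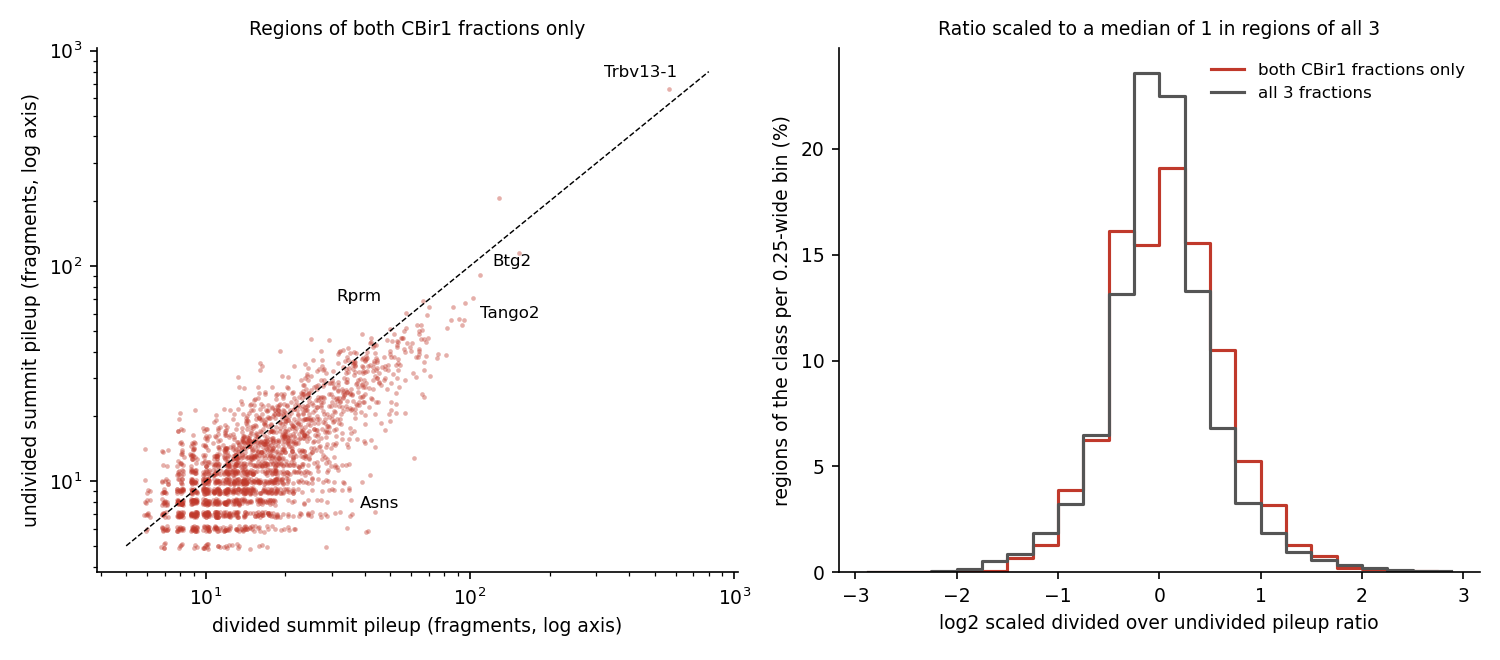
Left, summit pileup in fragments (log axes, slightly jittered) in divided (x) and undivided (y) cells for the 2207 regions, with the dashed line of equal pileup; Trbv13-1 stands far from the rest with 572 divided and 664 undivided fragments. Right, share of regions (%) by log2 of the scaled divided over undivided ratio for regions of both CBir1 fractions (red) and of all 3 fractions (grey), whose median is 0 by construction.

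Among regions with a −log10 q of at least 5 in both fractions, 4 had the highest scaled divided over undivided ratio. The highest lay 39280 bp from Gm7697, with 61 fragments in divided and 13 in undivided cells (scaled ratio 3.89). The second lay 53373 bp from Myc, the growth and proliferation regulator, with 39 in divided and 10 in undivided cells (3.23). The third covered the promoter of Asns, which encodes asparagine synthetase, with 35 in divided and 9 in undivided cells (3.22), and its nearest polyclonal peak was 137473 bp away. The last lay 22678 bp from Bcl2l14, with 34 in divided and 9 in undivided cells (3.13). Without that −log10 q limit the highest ratio was 5.80, inside Sorl1, with 42 in divided and 6 in undivided cells.

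The 4 lowest ratios, again with a −log10 q of at least 5 in both fractions, were on the undivided side. A region over Trgv6, a V segment of the gamma receptor locus (chr13:19190053-19191046), had 19 fragments in divided and 41 in undivided cells (scaled ratio 0.384). A region 40904 bp from Mad2l1, a spindle checkpoint gene, had 13 in divided and 28 in undivided cells (0.385). A region inside Bcl2, the survival gene, had 14 in divided and 27 in undivided cells (0.430). The last, chr4:9015636-9016267, had 11 in divided and 21 in undivided cells (0.434) and no gene within 100 kb.

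The strongest region of all lay in the T cell receptor beta locus. T cell receptor loci hold arrays of V, D and J segments that are joined in each developing T cell, and a transgenic receptor adds already joined DNA. The region chr6:41115951-41116754 covered Trbv13-1 (chr6:41116036-41116468), the V segment that the CBir1 receptor's beta chain is known to use. It had 572 fragments in divided and 664 in undivided cells, with −log10 q-values of 196 in divided and 257 in undivided cells. By the lower −log10 q no other region of the class came near. The next, inside Vmn2r91, a vomeronasal receptor gene, had 34.2, with 37 fragments in divided and 35 in undivided cells. Higher pileups occurred at lower rank, such as 111 in divided and 91 in undivided cells near Btg2, outside the receptor loci. The local background around Trbv13-1 was also the highest of the class, at 116 fragments in divided and 119 in undivided cells. Class medians were 1.51 in divided and 0.885 in undivided cells. The next highest divided background, 91.6 with 54.3 in undivided cells, was near Sfi1, also outside the receptor loci. V segments of a family resemble each other, and how reads that match several of them were placed has no statement in those sources.

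The beta locus held 44 regions, of which 6 were of both CBir1 fractions only (13.6%, 6.40 to 26.7). Its other regions were 17 of all 3 fractions, 10 of polyclonal cells alone, 5 of divided cells alone, 3 of undivided cells alone and 3 of divided and polyclonal cells. The one with the second highest pileup, chr6:41546810-41547630, covered the constant gene segment Trbc2 with 131 fragments in divided and 201 in undivided cells, over backgrounds of 80.7 in divided and 88.9 in undivided cells, and its lower −log10 q of 4.82 was the lowest of the 6. A region 1935 bp from Trbv21 had 41 in divided and 41 in undivided cells. A region 4264 bp from the pseudogene segment Trbv27 had 13 in divided and 9 in undivided cells. The remaining 2 lay before Trbd1, with 29 in divided and 13 in undivided cells at 27423 bp, and 13 in divided and 13 in undivided cells at 6411 bp.

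Some neighbouring regions that polyclonal cells did share also had higher CBir1 pileups, and others did not. The polyclonal peak nearest to the Trbv13-1 region was 1558 bp away. The region on one side, chr6:41112972-41113602 over Trbv12-1, had 130 fragments in divided cells, 93 in undivided cells and 101 in polyclonal cells, a CBir1 over polyclonal pileup ratio of 0.933 (the lower of the scaled divided and undivided ratios). Its background was 50.5 in divided cells, 53.2 in undivided cells and 6.70 in polyclonal cells. At chr6:41118060-41119023, the next region on the other side, over Trbv12-2, the pileup was 1524 in divided cells, 1606 in undivided cells and 88 in polyclonal cells. Its background was 112 in divided cells, 117 in undivided cells and 10.1 in polyclonal cells. At chr6:41543812-41545821, over Trbj2-7, the pileup was 683 in divided cells, 634 in undivided cells and 65 in polyclonal cells. At chr6:41553117-41555204, 2489 bp from Trbv31, it was 1301 in divided cells, 1584 in undivided cells and 223 in polyclonal cells. The last 3 had the highest such pileup ratios of all regions of all 3 fractions, at 14.6, 8.84 and 4.91. The next, 19636 bp from the chemokine gene Ccl5, was at 3.38. The 5 highest background ratios of that class, 2.42 to 9.35, were also in the beta locus. The CBir1 libraries carry added receptor DNA by design and the polyclonal library does not, so more copies of this DNA and more open chromatin cannot be told apart here.

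**Figure D3:**
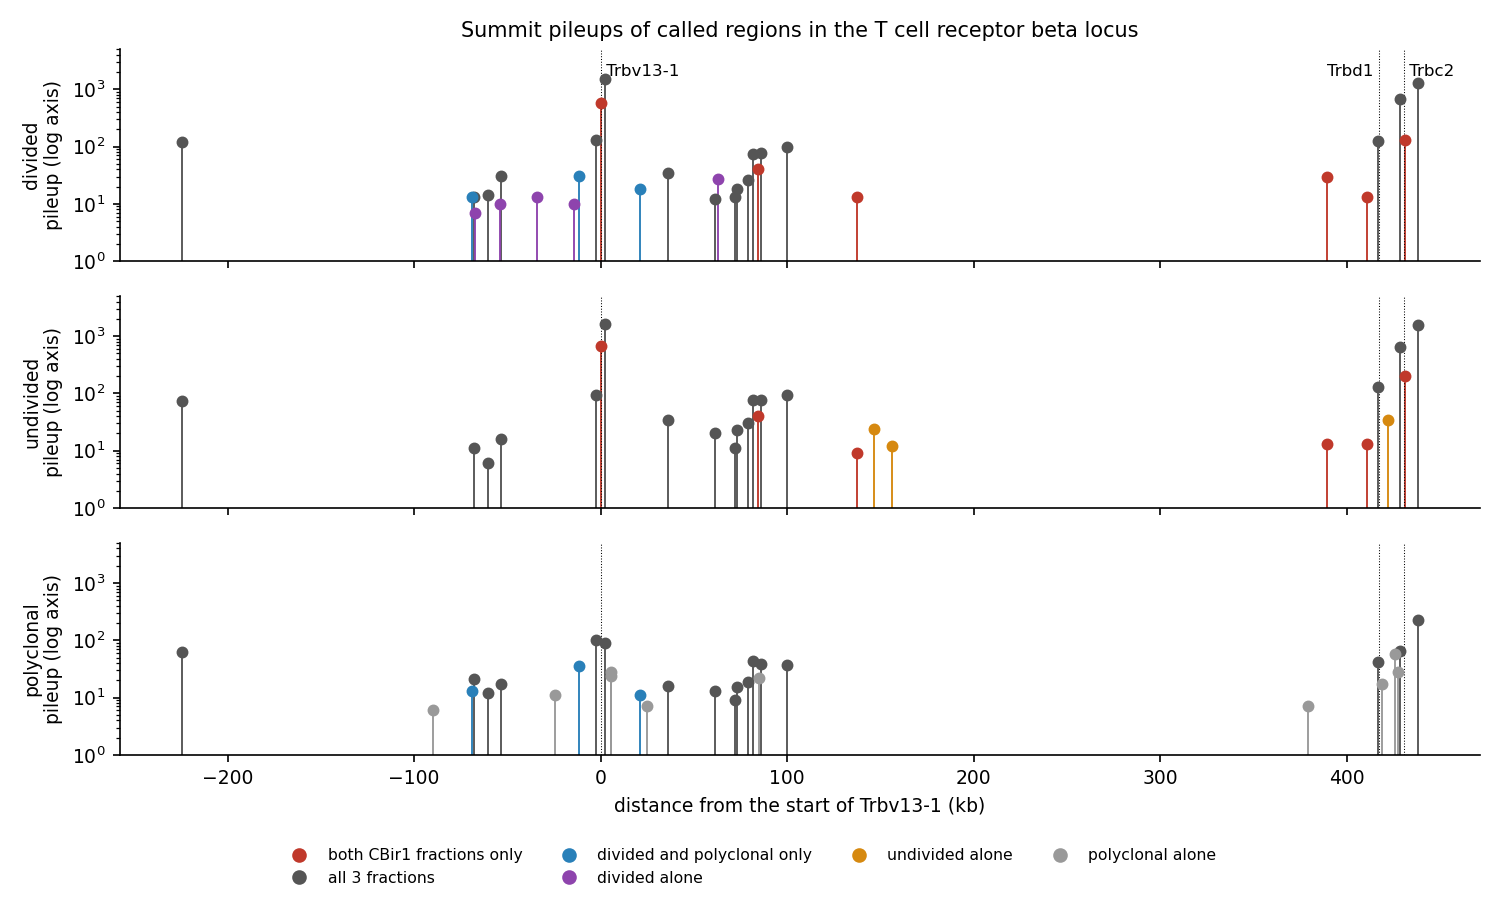
Summit pileup in fragments (log axis) of each called region of the beta receptor locus in divided, undivided and polyclonal cells (top to bottom), by distance in kb from the start of Trbv13-1; colours give the fractions that called the region. Regions over Trbv13-1 and Trbc2 (red) have pileups of 131 to 664 in the CBir1 fractions and no polyclonal peak, beside regions of all 3 fractions (dark grey) that reach 1606.

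The other receptor loci had no such peak. The alpha locus held 181 regions, 10 of them of both CBir1 fractions only (5.52%, 3.03 to 9.87), and the gamma locus 7, with 1, the Trgv6 region above. The delta locus lies inside the alpha locus and held 2 of 19, near Trdv4. Near V segments, the alpha regions had 26 fragments in divided and 25 in undivided cells at Trav12-1, and 28 in divided and 33 in undivided cells at Trav17. They had 13 in divided and 10 in undivided cells at Trav4-3, and 10 in divided and 11 in undivided cells 22041 bp from Trav1. At the delta segments it was 9 in divided and 21 in undivided cells over Trdv1. Before Trdv4 the pair had 14 in divided and 18 in undivided cells, and 11 in divided and 19 in undivided cells. At J segments, it was 20 in divided and 27 in undivided cells near Traj42, 36 in divided and 33 in undivided cells near Traj39, and 34 in divided and 24 in undivided cells over Traj19. Undivided pileups were above divided ones in 6 of these 10, against 473 of the 2207 regions.

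The 12 strongest regions of all include the Trbv13-1 and Vmn2r91 regions above, and the others lay outside receptor loci near genes of varied roles. Tango2, which takes part in Golgi organisation, had 100 fragments in divided and 70 in undivided cells inside the gene. Rprm is described above. Gm4767 had 35 in divided and 26 in undivided cells, and Gramd1b, a sterol transfer protein gene, 31 in divided and 27 in undivided cells. A region 18662 bp from Impa2, an inositol phosphatase gene, had 37 in divided and 26 in undivided cells.

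A region 9083 bp from Btg2, an antiproliferative gene of resting lymphocytes, had 111 in divided and 91 in undivided cells, over backgrounds of 32.8 in divided and 18.9 in undivided cells. Zfp618 had 26 in divided and 27 in undivided cells. A region 19443 bp from Terf2, whose product protects telomeres, had 35 in divided and 41 in undivided cells. A region at Fen1, the flap endonuclease of DNA replication, had 45 in divided and 30 in undivided cells. A region inside Bub1b, a spindle checkpoint kinase gene, had 58 in divided and 52 in undivided cells. Among the 12 strongest, those with a polyclonal peak within 1 kb were Impa2 at 203 bp and Tango2 at 966 bp. Btg2 at 1058 bp and Terf2 at 1144 bp came next. Over all 2207 regions the share with one within 1 kb was 15.8%. Of the 6 strongest at gene ends, those not yet named were Gm19802, with 39 in divided and 23 in undivided cells, and Tob2, an antiproliferative gene, with 27 in divided and 24 in undivided cells.

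The regions were spread over all autosomes, at 3.41% of the regions of chromosome 7 to 4.61% of those of chromosome 6. Of 1454 windows of 1 Mb with at least 10 regions, 437 held none, 887 held 1 to 3 and 130 held 4 or more. Most were in chromosome 11 at 119 to 120 Mb, with 9 of 85. Windows of chromosome 14 at 54 to 55 Mb, which includes the alpha locus J segments, chromosome 3 at 52 to 53 Mb, which includes Foxo1, and chromosome 10 at 81 to 82 Mb had 8 each, of 89, 94 and 101 regions. The highest share was on chromosome 2 at 53 to 54 Mb, with 5 of 12 (41.7%), and the next was 30%.

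That window is part of the longest run of these regions without a polyclonal peak, a pattern chosen after its values were seen. Between chr2:53204694 and chr2:54086228 (882 kb), 7 of 9 regions were of both CBir1 fractions, the other 2 were of undivided cells alone, and no polyclonal peak was called. The run ended at Rprm, after which the next region, one of all 3 fractions, was 3028 kb away. In order, the first at Arl6ip6 had 12 in divided and 14 in undivided cells. The second had 14 in divided and 8 in undivided cells, and the next 8 in divided and 20 in undivided cells, both with no gene within 100 kb.

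Near Gm38481 a pair followed, with 12 in divided and 12 in undivided cells, and with 11 in divided and 13 in undivided cells. The last 2 were 7 in divided and 6 in undivided cells 6796 bp from Rprm, and the Rprm region itself. Except for Rprm these were weak, and with a common minimum pileup scaled by background the class had 1 region in this span, and with one scaled by shared regions 4. The next longest run of this class had 4 members. Longer runs existed for regions of divided and polyclonal cells, with up to 12 in 1113 kb of chromosome 5, so a run of 7 was not the longest of its kind over the classes.

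**Figure D4:**
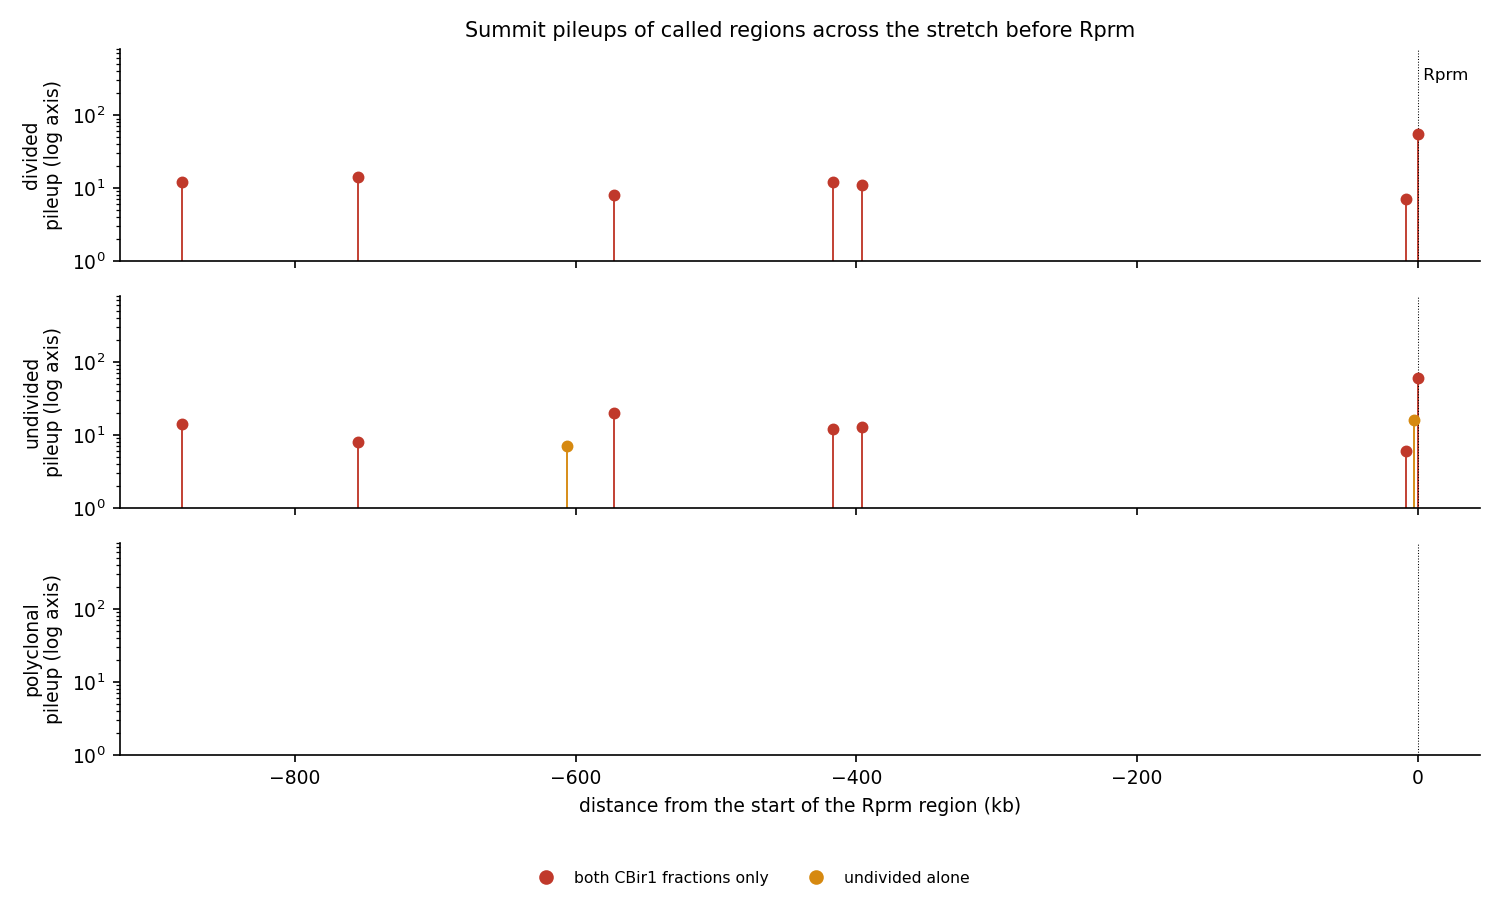
Summit pileup in fragments (log axis) of each called region of the run in divided, undivided and polyclonal cells (top to bottom). The x axis is the distance in kb of the summit from the start of the Rprm gene (labelled Rprm region). Within the run the CBir1 fractions share 7 regions (red) and the polyclonal panel is empty.

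With a gene within 100 kb there were 2080 of these regions, 3.92% of the 53055 regions with a gene, near 1788 genes: 1547 genes had 1, 201 had 2, 30 had 3, 9 had 4 and Chn2 had 5. Genes with many regions of any kind have more chances, so the total is given beside each count. Chn2, a Rac-regulating gene active in T cell receptor signalling, had 5 of its 28 regions in the class, with 11 to 24 fragments in divided and 6 to 12 in undivided cells. Trat1, which encodes an adaptor of the T cell receptor complex, had 4 of 14, the strongest with 22 in divided and 22 in undivided cells. Stx11, whose syntaxin serves granule release in cytotoxic lymphocytes, had 4 of 11, the strongest with 20 in divided and 14 in undivided cells.

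Asap1, which regulates Arf GTPases, had 4 of 34, up to 42 in divided and 36 in undivided cells. Celf2, an RNA-binding splicing regulator, had 4 of 40, up to 44 in divided and 35 in undivided cells. Zmiz1, a transcriptional coactivator, had 4 of 30, up to 26 in divided and 15 in undivided cells. Bcl2 had 4 of 32 and Foxo1 4 of 34, described next.

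T cell gene lists were then counted, each against the 3.92% of all regions with a gene. The lists together had 66 of 1525 regions (4.33%, 3.42 to 5.47), near that background. The list of naive and quiescence genes, whose products keep T cells resting and circulating, had 27 of 440 (6.14%, 4.25 to 8.78). Its share of regions of undivided and polyclonal cells only was 5.68%, against 3.86% of all regions with a gene, and of divided and polyclonal cells only 3.86%, against 7.08%. Bcl2, Foxo1 and Satb1 had the most regions of both CBir1 fractions in the list, 4 each. Without them together the list's share of such regions was 4.37%, near the background. They were picked for their counts after the values were seen, so a lower share was built in. At a −log10 q of at least 5 in both fractions 13 of the 27 remained, a share of 2.95% (1.73 to 4.99) against 1.95% of all regions with a gene. Without those that had a polyclonal peak within 1 kb 18 remained, a share of 4.09% (2.60 to 6.37) against 3.29%. Neither interval lay clear of its background. With the common minimum by background the share was 5.47% (3.64 to 8.15) against 3.50%, an interval clear of it. With genes within 20 kb it was 6.40% (4.26 to 9.49) against 3.86%, also clear. With the common minimum by shared regions it was 5.56% (3.73 to 8.20) against 4.35%, not clear. Regions of the same gene are not independent, each fraction was 1 library, and several lists were looked at. These intervals thus cover counting error only, and whether the list stands apart from its background was not tested.

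The 27 regions belonged to 13 of the 18 genes and had a median pileup of 28 fragments in divided and 22 in undivided cells. Btg2 led, as above. Bcl2 had 38 in divided and 35 in undivided cells in its strongest region, 26254 bp from the gene. Its others, inside the gene, had 14 in divided and 27 in undivided cells, 22 in divided and 22 in undivided cells, and 32 in divided and 15 in undivided cells. Foxo1, a transcription factor gene of naive cell survival and homing, had 42 in divided and 22 in undivided cells inside the gene, and 20 in divided and 14 in undivided cells 25438 bp away. Its other 2 had 14 in divided and 8 in undivided cells, and 9 in divided and 15 in undivided cells. Satb1, a chromatin organiser of T cells, had 4, from 8 in divided and 6 in undivided cells to 23 in divided and 31 in undivided cells.

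Lef1, a partner of beta-catenin in naive cells, had 3, the strongest with 45 in divided and 31 in undivided cells (lower −log10 q 7.68). Its highest pileup, 59 in divided and 45 in undivided cells, lay over backgrounds of 29.0 and 22.6 and was its weakest region (2.87). Foxp1, a regulator of quiescence, had 3, up to 39 in divided and 15 in undivided cells. Ets1 had 2, at 42 in divided and 24 in undivided cells (4.90) and at 56 in divided and 39 in undivided cells. The latter lay over backgrounds of 25.2 in divided and 17.3 in undivided cells (3.48). Bach2, Klf2, Klf3, Tcf7 and Il7r had 1 each, among them Bach2 at 38 in divided and 25 in undivided cells and Klf3 at 49 in divided and 50 in undivided cells. Several lay beside a polyclonal peak, at 269 bp for Bach2, 494 bp for Klf3 and 26 bp for an Ets1 region.

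**Figure D5:**
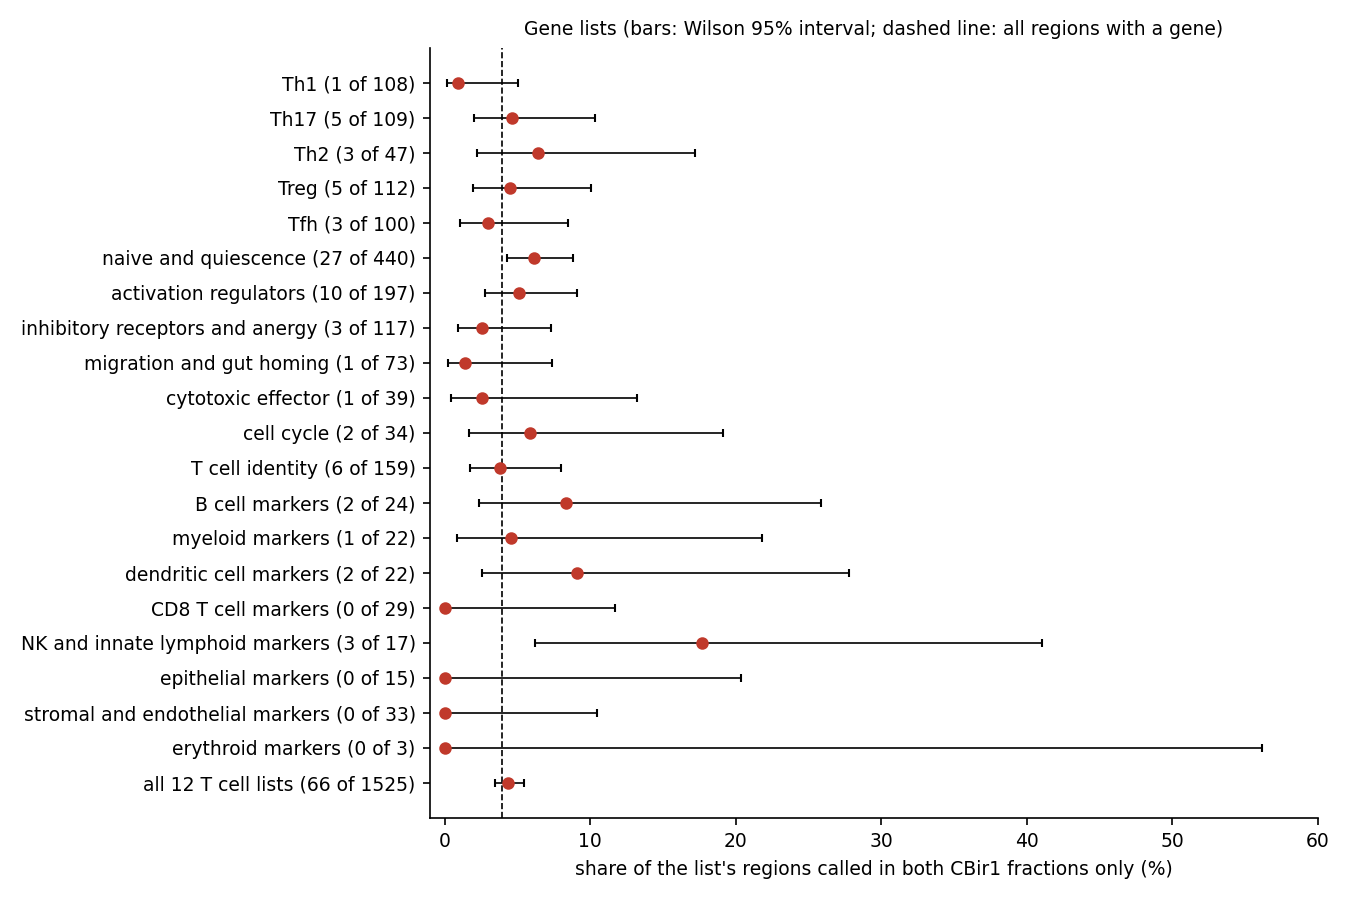
Share (%) of the regions of each gene list that were called in both CBir1 fractions only, with Wilson 95% intervals; the dashed line is the share over all regions with a gene (3.92%). The naive and quiescence interval begins at 4.25% and that of the NK and innate lymphoid markers, from 17 regions, at 6.19% (it rests on 3 regions, none with a −log10 q of 5 or more in both fractions), while the line crosses all other intervals.

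The lists of helper T cell subsets had 1 to 5 regions each, of 47 to 112, and every interval included the 3.92%. Th1 genes had 1 of 108 regions (0.926%, 0.164 to 5.06). Th17 genes had 5 of 109 (4.59%, 1.98 to 10.3), led by Il1r1, an interleukin receptor gene, with 17 in divided and 10 in undivided cells, and Rora, a nuclear receptor gene, with 20 in divided and 10 in undivided cells. The region 6063 bp from Il17a, the cytokine gene that names the subset, had 22 in divided and 8 in undivided cells. Th2 genes had 3 of 47 (6.38%, 2.19 to 17.2), of which Ccr4, a chemokine receptor gene, had 52 in divided and 44 in undivided cells and Stat6, the signal transducer of interleukin 4, 19 in divided and 12 in undivided cells.

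Treg genes had 5 of 112 (4.46%, 1.92 to 10.0). Entpd1, an ectonucleotidase gene, had 20 in divided and 16 in undivided cells, and Nrp1, a coreceptor gene, had 3 regions, the strongest with 18 in divided and 8 in undivided cells. Tfh genes had 3 of 100 (3.00%), with the cytokine gene Il21 at 16 in divided and 8 in undivided cells and Pdcd1, the inhibitory receptor gene, at 8 in divided and 9 in undivided cells, 94460 bp away.

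Activation regulators had 10 of 197 (5.08%, 2.78 to 9.09). Nr4a3, an orphan receptor gene induced by antigen, had 21 in divided and 19 in undivided cells, 15179 bp away. A second Myc region, 41478 bp from the gene, had 12 in divided and 16 in undivided cells, unlike the divided-leaning one above. Inhibitory receptor and anergy genes had 3 of 117 (2.56%), 2 of them at Tox, a regulator of exhausted cells, with 13 in divided and 8 in undivided cells and 9 in divided and 10 in undivided cells. Migration genes had 1 of 73, near the selectin ligand gene Selplg, with 42 in divided and 16 in undivided cells. Cytotoxic genes had 1 of 39, 73312 bp from the death ligand gene Fasl, with 19 in divided and 21 in undivided cells.

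Cell cycle genes had 2 of 34, at Rrm2, the ribonucleotide reductase subunit, with 16 in divided and 14 in undivided cells, and at Ccne1, a cyclin gene, with 12 in divided and 13 in undivided cells. T cell identity genes had 6 of 159 (3.77%). At the coreceptor gene Cd4 it was 70 in divided and 46 in undivided cells, and at Cd5, an inhibitory surface receptor gene, 16 in divided and 13 in undivided cells. All 14 identity genes had a region of all 3 fractions assigned, 13 of them at a gene end. The same held for all 18 naive and quiescence genes, 22 activation regulators and 14 cell cycle genes, 17, 18 and 14 of them at a gene end. Every other list had genes without one.

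Markers of other cells had 0 to 3 regions a list. The 4 marker lists with any had shares above the 3.92%, and only the NK interval did not include it. B cell genes had 2 of 24 regions (8.33%, 2.32 to 25.8), at Bank1, with 13 in divided and 11 in undivided cells, and near Ebf1, with 20 in divided and 9 in undivided cells. Myeloid genes had 1 of 22 (4.55%, 0.807 to 21.8), near Lyz2, with 14 in divided and 10 in undivided cells. Dendritic cell genes had 2 of 22 (9.09%, 2.53 to 27.8), near Cd209a, with 43 in divided and 14 in undivided cells, and near Batf3, with 25 in divided and 10 in undivided cells. NK and innate lymphoid genes had 3 of 17 (17.6%, 6.19 to 41.0), among them Klrb1c, with 40 in divided and 25 in undivided cells, and Il1rl1, with 11 in divided and 7 in undivided cells. Il1rl1 was also in the Th2 list and Batf3 in that of activation regulators, so their regions were counted in both. None of these NK and innate lymphoid regions reached a −log10 q of 5 in both fractions (0%). Their share was 10% (1.79 to 40.4) with the common minimum by background, against 3.50% of all regions with a gene, and 7.69% (1.37 to 33.3) with that by shared regions, against 4.35%. CD8 T cell, epithelial, stromal and erythroid genes had none: 0 of 29 (which allows up to 11.7%), 0 of 15 (20.4%), 0 of 33 (10.4%) and 0 of 3 (56.2%). The part of other cells in any of these regions was not tested.

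At the edge of the rule, the 4 weakest regions inside had a lower −log10 q near the authors' cutoff. Tent4a had 10 fragments in divided and 5 in undivided cells (lower −log10 q 1.37), Sp3 11 in divided and 5 in undivided cells (1.39), a region near Fos 6 in divided and 7 in undivided cells (1.42), and Pakap 15 in divided and 13 in undivided cells (1.43). The 4 closest outside were regions of all 3 fractions with the weakest polyclonal peaks. Septin11 had 18 in divided cells, 10 in undivided cells and 5 in polyclonal cells (polyclonal −log10 q 1.42), and Nkx3-2 13 in divided cells, 10 in undivided cells and 7 in polyclonal cells (1.49). Chrd had 8 in divided cells, 7 in undivided cells and 5 in polyclonal cells, and Ppp2r5c 18 in divided cells, 13 in undivided cells and 5 in polyclonal cells (1.51 each). Those inside were closest to the cutoff in a CBir1 fraction, and those outside in polyclonal cells, where their peaks had 5 to 7 fragments. Divided pileups were 6 to 15 inside and 8 to 18 outside, so both sides were not matched in CBir1 signal.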

How the data were processed

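ATAC-seq peak lists of 3 fractions were analysed, 1 library each, grouped by their labels. Per the submitters' processing notes the tools were bcl2fastq 2.17, cutadapt 1.12, Trimmomatic 0.33, Bowtie2 2.3.2, Picard, SAMtools and MACS2 2.1.0, with build mm10. Any shift of reads for the transposase cut is not stated. The deposited lists give each peak's position and summit offset, a score, a fold enrichment over local background (a linear ratio), a −log10 p-value and a −log10 q-value; the authors' lowest −log10 q-value was 1.31 in divided cells, 1.30 in undivided cells and 1.30 in polyclonal cells. These are the authors' values for each peak, used to describe, rank and filter.

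The number of reads is unknown from these sources. Pileup and background were recovered from fold, taken as (pileup + 1)/(background + 1), and the Poisson −log10 p-value, within 0.001, in 99.996% of the peaks of divided cells, 99.995% of those of undivided cells and 99.993% of those of polyclonal cells; the recovery and the merging were tested on simulated data. Intervals are Wilson 95% intervals and cover counting error only.

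Regions were given the closest protein-coding span of a RefSeq table (GRCm38.p6, the assembly of mm10; 21900 genes) within 100 kb. That table has no exons, so exon and intron were not told apart. Sequences are from RefSeq tables of the same build; the 5 motifs searched there were picked from the planned search around summits, which was not run. Named were the 12 strongest regions, the 2 strongest of each gene list and the 6 strongest at gene ends. Every region in a receptor locus was named. So were the 4 highest and 4 lowest pileup ratios at a −log10 q of at least 5 in both fractions. The 8 genes with most regions, the fullest 1 Mb windows and 4 regions on each side of the threshold were named too. Others were chosen after their values were seen. The members and lists were chosen with earlier results of these data known. Python 3.11.15, numpy 2.4.6, pandas 2.3.3, scipy 1.17.1, statsmodels 0.14.6 and matplotlib 3.10.9 were used. Alternatives covered the q-value threshold, the overlap, the gap to polyclonal peaks, common minimum pileups, the gene end definition, the pileup scaling and the gene distance. Sex chromosomes were left out, as the rule asks. Some items that the naming rule picks are not reported here.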

Additional observations from a re-analysis of the deposited data

Results flagged for a closer look

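Chromosome X was outside the rule and held regions of the same kind, at a share whose interval includes that of the autosomes. There, 68 of 1475 merged regions were called in divided and undivided CBir1 cells and not in polyclonal cells (4.61%, 95% interval 3.65 to 5.80), against 3.94% on the autosomes. Chromosome Y held 3 of 36 (8.33%, 2.87 to 21.8), an interval that includes it too.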

How the results depend on the processing

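No paired analysis was possible because each fraction is 1 library and there are no replicates to leave out or to block on. The planned G and C content and motif search around summits was not run without a genome. The number of regions, 2207, was 1091 with both −log10 q-values at 5 or more and 266 at 10 or more. Under the other definitions of the class it was 1581 to 2066. The share near a gene end was 12.4% at a −log10 q of 10, 9.63% with no polyclonal peak within 1 kb, 12.4% with the common minimum by background and 20.2% with 3 kb either side. The share inside a gene was 54.5% at a −log10 q of 10 and 59.4% with the common minimum by background. The divided over undivided ratio, 1.29, was 1.22 at a −log10 q of 5, 1.19 at 10, 1.38 with the common minimum by background, 0.859 when divided by lowest background and 1.07 when scaled by shared regions. The share of summits within 50 bp was 66.5% at a −log10 q of 5, 78.2% at 10, 55.6% when peaks had to overlap by 50% of the shorter, 61.0% with the common minimum by background and 58.8% with that by shared regions. The share of T cell list regions was 1.84% at a −log10 q of 5, 0.590% at 10 (beside 1.95% and 0.473% of all regions with a gene) and 3.34% with no polyclonal peak within 1 kb (beside 3.29%). Fewer regions can meet a stricter rule; otherwise the cause was not tested. Depth limits what was called: the lowest pileup in a list was 6 fragments for divided, 5 for undivided and 5 for polyclonal cells. The naive and quiescence list was also counted without Bcl2 (5.64%), Foxo1 (5.67%) and Satb1 (5.62%), an alternative chosen after seeing the data.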
